A study of Mus musculus with 2 samples.

Results

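The genes described are the building blocks of the motile cilium whose symbols begin with Dnah, Dnai, Dnal, Cfap, Rsph or Tekt. These prefixes picked 67 of the 55487 genes in the count table. There were 16 Dnah, 33 Cfap, 2 Dnai, 3 Dnal, 8 Rsph and 5 Tekt genes. Each of the 67 had at least 1 unique molecular identifier (UMI, a tag that marks 1 captured RNA molecule) in the annotated cells.

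A motile cilium beats because dynein motors slide the microtubule doublets of its core, the axoneme, past one another. Dnah genes encode the dynein heavy chains, the ATP-burning motors of the outer and inner arms, while Dnai and Dnal genes encode their intermediate and light chains. Rsph proteins belong to the radial spokes that link the doublets to the central pair, Tekt proteins are filaments that strengthen the doublets, and Cfap proteins are spread over the central apparatus, the doublet wall, the tethers and the assembly machinery. In airway, oviduct and brain ventricle epithelium such genes are switched on together in multiciliated cells, largely under Foxj1 and the RFX factors. The thymic medulla holds scattered epithelial cells that copy the gene programmes of peripheral tissues, ciliated cells among them, and displays the self-antigens of those tissues to developing T cells.

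The study measured single-cell RNA in medullary thymic epithelial cells with low MHC class II (mTEClo), sorted as Pdpn- CD104- from C57BL/6 thymus. The Hnf4ctrl group, 3 samples, had the genotype Foxn1 cre/+, Hnf4a fl/+, Hnf4g +/-. The Hnf4dTEC group, 4 samples, had the genotype Foxn1 cre/+, Hnf4a fl/fl, Hnf4g -/-. Both groups therefore carried the Cre, which is driven by the thymic epithelial gene Foxn1, and the controls themselves lacked 1 working Hnf4g allele and had 1 Hnf4a allele open to deletion. Hnf4a and Hnf4g are nuclear receptors of gut and liver. All 7 samples carried their own hash antibody and were run together in 1 droplet run. Whether the samples came from different animals is not in the labels; the p-values cover only how these 7 samples scatter.

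The authors' annotation gave 9185 cells in 15 classes, with 10127838 to 25821970 UMIs per sample. All 9185 cell barcodes were distinct. In 45 cells another hash tag than the assigned one had the most counts, and none of these was in the class annotated as Ciliated. Over all cells the mutated gene Hnf4g had 122, 117 and 116 CPM (UMIs of the gene scaled to a total of 1000000) in the controls and 88.4, 79.8, 86.1 and 78.1 in the mutants (log2 fold change -0.50, SE 0.06, adjusted p = 0.0384 by edgeR's quasi-likelihood test). For Hnf4a the values were 1.68, 2.85 and 3.18 against 1.74, 0.673, 1.55 and 2.27 CPM (edgeR adjusted p = 0.874). Counted reads sit at 3' ends and may miss the deleted exons, which makes them no check of the deletion. In Ciliated cells Hnf4a had 25 UMIs and Hnf4g 111.

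The Ciliated class held 197 cells, 2.145% of those annotated. Controls 1 to 3 had 14, 14 and 47 of them, and mutants 1 to 4 had 28, 22, 35 and 37. Its label was checked against 18 markers of ciliated cells. All 18 were detected there and summed to 11440 CPM, with Foxj1, the forkhead factor of motile cilia, at 566 CPM against 80.7 in the next class, Secretory. Marker lists of other classes were lower there than in their own class: secretory markers at 984.5 CPM, cycling markers at 409, tuft markers at 375 and neuroendocrine markers at 311.5. Of 8 testis genes, 4 (Tnp1, Acrv1, Odf1 and Akap4) had no UMI in the class, and the 8 summed to 15.3 CPM.

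RFX factors bind a paired sequence called the X-box, and the promoters of the members were read for it first. RefSeq promoters on GRCm38.p6, from 250 bases before to 50 bases after the start, were at hand for 55 of the 67 members. The X-box was searched as GTTNCC and GNAAC with 3 bases of any kind between them. These letters were present on either strand for 5 of these 55 members (9.09%), against 0.936% of 27025 genes. A gene was counted if any of its promoter entries, each of the same length, held the letters. Those 5 matches are shown because they are all there were, printed on the strand of the gene with the matching letters in capitals.
Cfap45, chr1:172521103-172521132, plus strand: gttcttggGTTGCTATGGTAACgcgtcagc
Cfap61, chr2:145934768-145934797, plus strand: gccgcgtcGTTTCCTTAGCAACtgtgtgcg
Cfap44, chr16:44394764-44394793, plus strand: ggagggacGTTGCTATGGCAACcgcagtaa
Cfap298, chr16:90935016-90935045, minus strand: gggttttgGTTGCCCGGGCAACagctactt
Tekt4, chr17:25471582-25471611, plus strand: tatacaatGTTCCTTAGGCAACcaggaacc

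The single X-box arm GTTGCC, which can overlap the full motif, was in promoters of 19 of 55 members (34.5%) and of 14.1% of all genes. The letters TGTTTNC of a forkhead site were also in 19 of 55 (34.5%), against 22.8% of all. The letters CAAAGTCCA, a core read by HNF4 factors, were in 0 of 55, against 0.555% of all. By restriction, 28 of these genes were at least 10 times higher in Ciliated than in any other class. The X-box letters were in promoters of 3 of those 28 and of 2 of the other 27. The single arm was in 11 of those 28 and 8 of those 27. A match describes letters only, and a missing match describes only this window. The single arm in the 3 near-identical inner arm heavy chain genes Dnah7a, Dnah7b and Dnah7c and in Tekt1 is shown to compare the promoters of 3 related copies with another gene's. Capitals mark each arm, on either strand, and the stretch from Tekt1 holds it on both.
Dnah7a, chr1:53706946-53707017, minus strand: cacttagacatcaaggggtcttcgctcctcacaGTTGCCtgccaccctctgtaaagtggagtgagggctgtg
Dnah7b, chr1:46066657-46066728, plus strand: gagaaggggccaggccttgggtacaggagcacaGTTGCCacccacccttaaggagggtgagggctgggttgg
Dnah7c, chr1:46425268-46425337, plus strand: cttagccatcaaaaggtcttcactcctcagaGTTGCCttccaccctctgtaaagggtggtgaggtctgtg
Tekt1, chr11:72361883-72361950, minus strand: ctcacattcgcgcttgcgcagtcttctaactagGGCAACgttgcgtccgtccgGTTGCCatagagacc

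The members gathered in the Ciliated class. These 197 cells gave 3.638% of all UMIs but 47.94% of the members' UMIs, and 35.14% when every cell was thinned to 5000 UMIs. A description is all that can be given for this contrast, since the authors' classes rest on the same genes. Of the 67 members, 61 had their highest level in Ciliated; 37 were at least 10 times above the next class there, 21 from 2 to 10 times, and 3 less than 2 times. The ratio was over 100 for Cfap70 (133.3), a protein tied to the outer arm, Dnah3, an inner arm heavy chain, and Rsph14, a spoke-linked protein. For the last 2 the next class held only 3 UMIs, so that the ratio of Dnah3, 122.9, has bounds of 41.97 and 596.7 (exact binomial, 95%, counting error only) and that of Rsph14, 126.2, has bounds of 42.84 and 614.6. The lowest ratios were those of Cfap97 (1.06), Cfap53 (1.06) and the light chain gene Dnal4 (1.67). The ratio of Cfap53 was taken against Entero-hepato cells, where 5 cells held 94.74% of its UMIs.

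Summed over the members, Ciliated cells had 14650 CPM, or 15.7 times the next class, Neuroendocrine, at 933 CPM. Aire-expressing cells followed at 712 CPM, Entero-hepato at 685, Tuft at 663 and Aire-adjacent at 577, while Microfold cells were lowest among the 14 classes of at least 50 cells, at 340. A thinned Ciliated cell held a median of 33 different members, a thinned Neuroendocrine cell 3, and a Keratinocyte cell 1. Per cell, members took a median of 1.5% of UMIs in Ciliated, from 0.197% in the lowest cell to 2.97% in the highest. Outside the class 7 cells reached 0.695%, the tenth percentile of Ciliated cells: 4 Tuft, 2 Aire-expressing and 1 Keratinocyte. The spread between classes below Ciliated was small beside the step up to it.

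**Figure D1:**
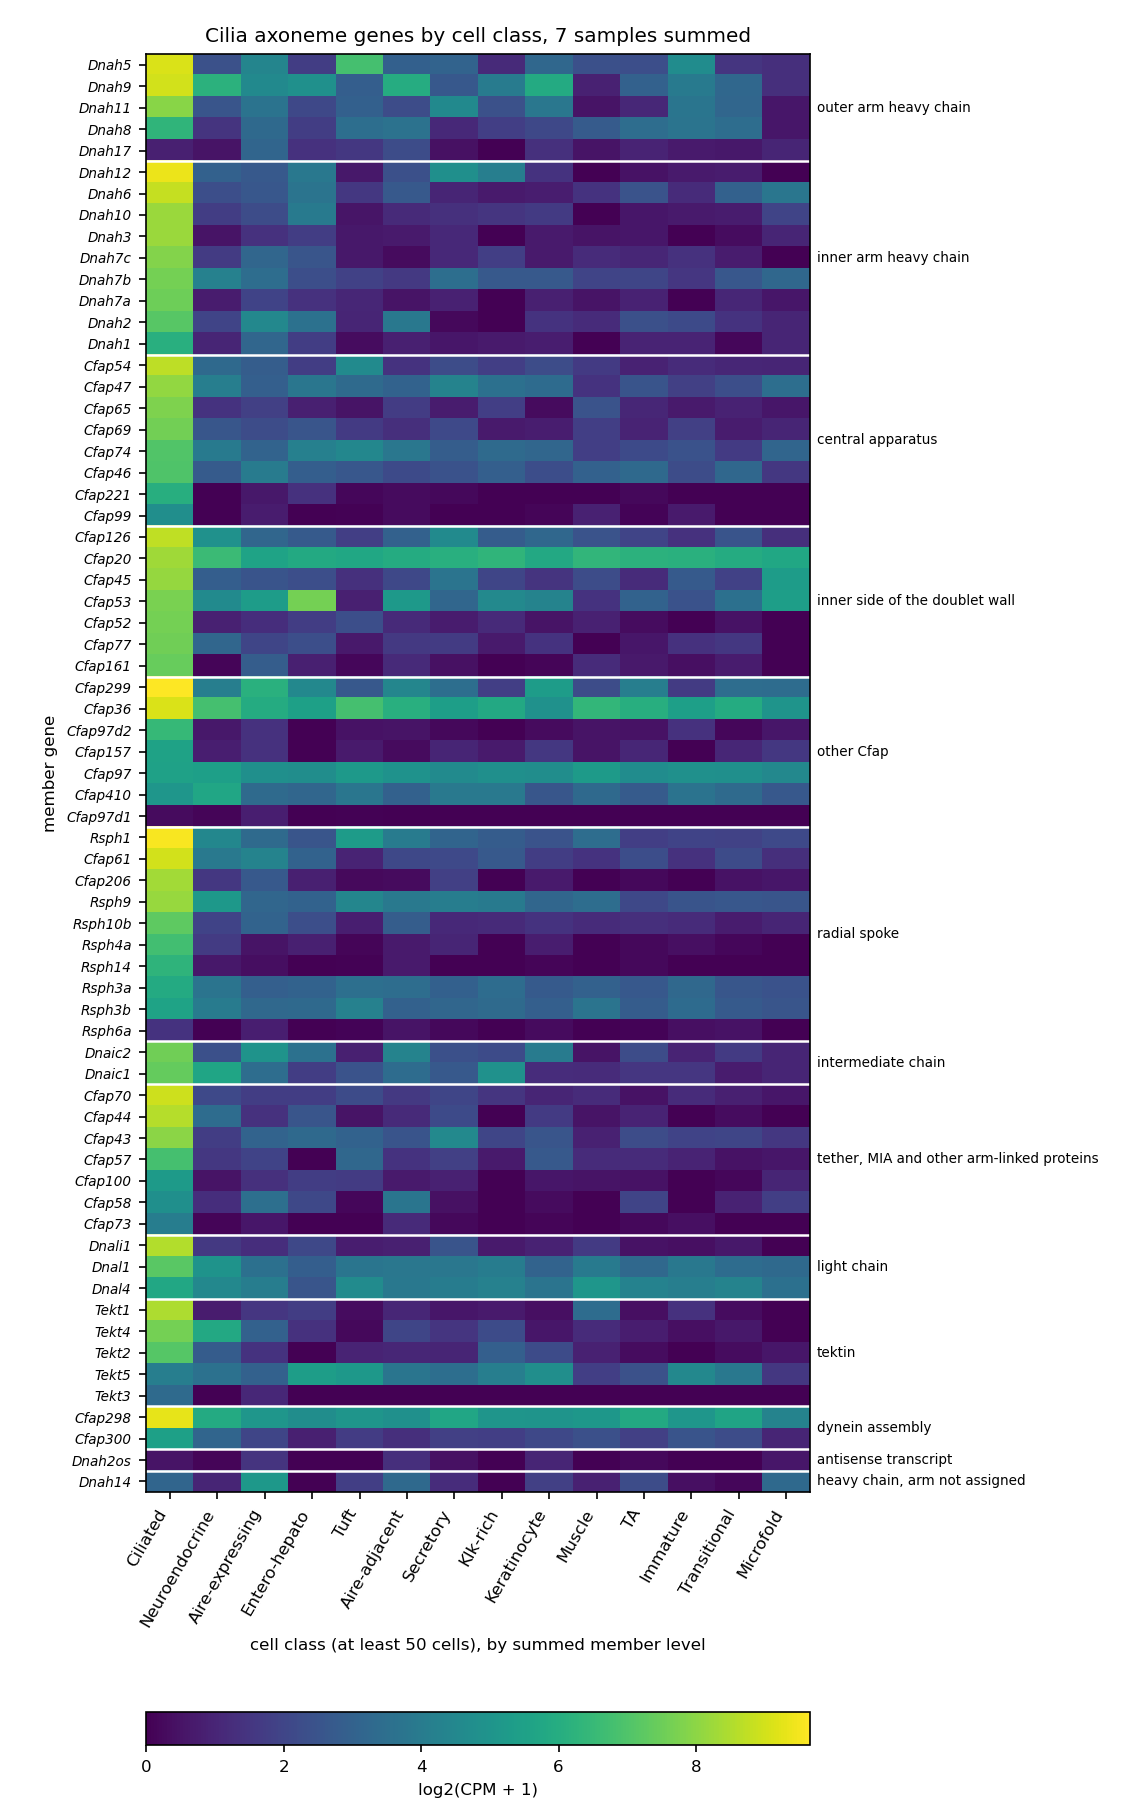
Level of each member (rows, grouped by role) in each class of at least 50 cells (columns), as CPM over all 7 samples. The colour scale is log2, with a constant added to each CPM value. The Ciliated column is the brightest for 61 of 67 members; Dnah14, Dnah17, Dnah2os, Cfap97d1, Cfap410 and Tekt5 are brightest in another column.

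CPM values were not divided by gene length. Whether intronic reads were counted is not given in the sources used here, so any order of levels between genes is an order of counted UMIs, in which the part of gene length was not tested. Among heavy chains of the inner arm, 9 genes, 80.75% of UMIs came from Ciliated cells, and 7 of the 9 were at least 10 times above the next class. Dnah12 was the most abundant (chromosome 14, 26693274 to 26891703, plus strand, mm10), at 636, 674 and 650 CPM in control Ciliated cells and 733, 836, 586 and 566 in mutant ones. Dnah6, another inner arm motor (chromosome 6, 73017606 to 73221651, minus strand), stood at 643, 460 and 432 against 476, 587, 393 and 364 CPM. The genotypes overlapped for both genes. Dnah7a, Dnah7b and Dnah7c lay between 148.6 and 347.2 CPM over the 7 samples, and their split is uncertain because the copies can share reads.

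The outer arm heavy chains were less restricted as a group. Only 36.95% of the UMIs of these 5 genes came from Ciliated cells, and 1 of the 5 was at least 10 times above the next class. Dnah5 gave 9251 of their 18126 UMIs, 5950 of them in Tuft cells. By gene, the share from Ciliated was 28.65% for Dnah5, 49.64% for Dnah9, 54.43% for Dnah11, 26.99% for Dnah8 and 1.399% for Dnah17. Dnah5, the gamma-type outer arm motor and a main gene of primary ciliary dyskinesia (chromosome 15, 28203752 to 28472052, plus strand), had 801, 580 and 456 CPM in control and 670, 792, 499 and 406 CPM in mutant Ciliated cells. Dnah9, a beta-type outer arm motor (chromosome 11, 65831282 to 66168551, minus strand), had 617, 734 and 404 against 642, 654, 487 and 387 CPM. Both genes were lowest in control 3 and mutant 4, and the genotypes overlapped. Dnah11, the other beta-type motor of airway cilia, had 288, 317 and 183 against 301, 374, 206 and 211 CPM. Dnah8, known from the sperm tail, stood at 67.3, 85.7 and 82.3 against 56.2, 58.9, 75.9 and 108 CPM. Dnah17, also a sperm outer arm motor, had 4 UMIs in all Ciliated cells.

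The intermediate chains Dnaic1 and Dnaic2 sit at the base of the outer arm. Dnaic2 (chromosome 11, 114727408 to 114757889, plus strand) was even across samples, at 168, 152 and 196 CPM in control and 200, 185, 186 and 192 CPM in mutant Ciliated cells. Dnaic1 had 202, 114 and 159 against 181, 199, 174 and 142 CPM. Neither was as much as 10 times above its next class. Dnali1, a light chain of the inner arm (chromosome 4, 125055338 to 125065703, minus strand), had 344, 326 and 378 against 381, 374, 351 and 409 CPM. Dnal1, an outer arm light chain, had 172, 123 and 138 against 139, 150, 152 and 154 CPM. All 4 genes overlapped between genotypes.

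Radial spoke genes, 10 by role, gave 57.19% of their UMIs in Ciliated cells. Rsph1 of the spoke head (chromosome 17, 31255019 to 31277383, minus strand) had 748, 703 and 774 CPM in control and 701, 583, 867 and 826 CPM in mutant Ciliated cells. Rsph9, also of the spoke head, had 396.5, 302.9 and 286.6 against 251.4, 247.7, 270.0 and 314.4 CPM. The mutant values of Rsph9 lay mostly below the controls, but mutant 4 was above controls 2 and 3. Rsph6a, a spoke gene known from sperm, had no UMI in the Ciliated cells of 5 of the 7 samples. Rsph3a and Rsph3b are near-identical copies whose reads may be shared. Tekt1 (chromosome 11, 72344722 to 72362442, minus strand) led the tektins, at 370, 269 and 345 against 361, 333, 404 and 338 CPM, followed by Tekt4 (chromosome 17, 25454615 to 25476602, plus strand) at 224.5, 191.5 and 193.4 against 217.7, 182.7, 218.6 and 177.5 CPM.

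Among Cfap genes the highest in Ciliated was Cfap299 (chromosome 5, 98329304 to 98802047, plus strand), at 730, 992 and 745 CPM in control and 905, 1064, 703 and 726 CPM in mutant samples. Cfap298, needed to assemble dynein arms in the cytoplasm, had 606, 554 and 653 against 596, 536, 737 and 622 CPM. Cfap61, a spoke-base protein, had 602, 683 and 496 against 535, 554, 414 and 445 CPM. Tether and other arm-linked Cfap genes, 7 in all, gave 72.39% of their UMIs in Ciliated and had a median ratio of 13.6 over the next class. Central apparatus genes, 8 in all, gave 55.37%, with a median ratio of 24.9, and genes of the inner side of the doublet wall, 7 in all, 42.96%.

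**Figure D2:**
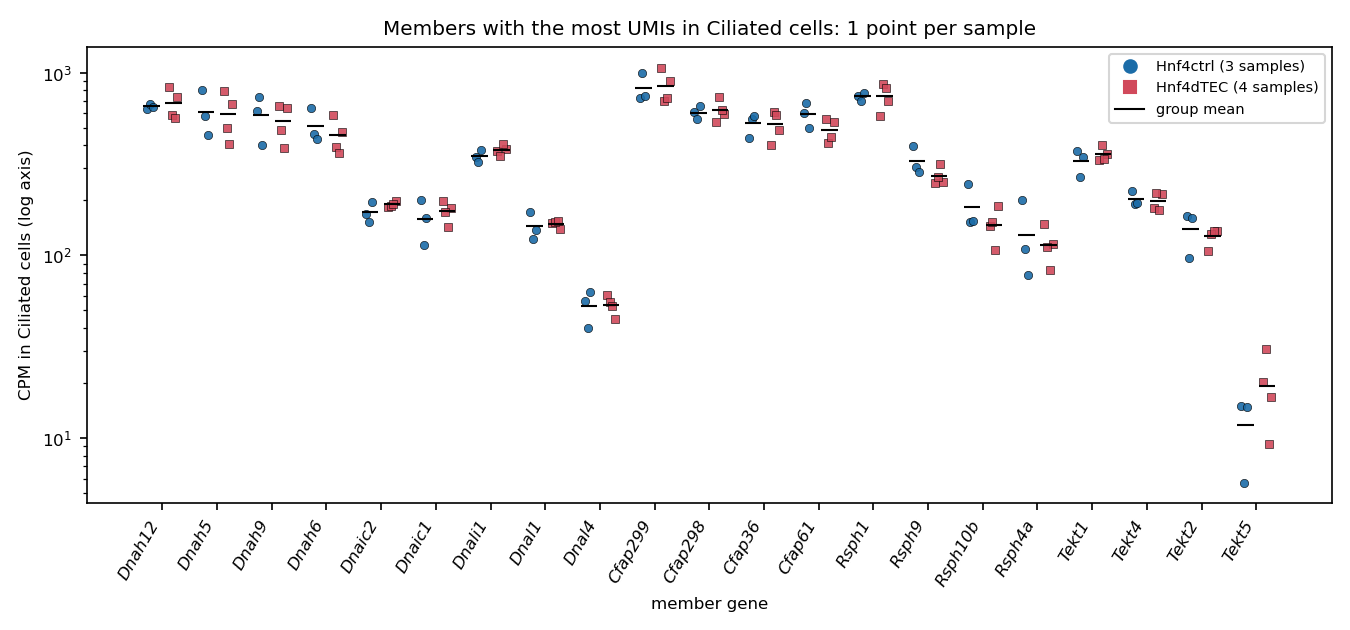
CPM of the most abundant members of each prefix in Ciliated cells, 1 point per sample, controls and mutants side by side, on a log10 axis. The genotypes overlap for each gene named from its abundance, and Dnah5 runs from 406 to 801 CPM over the 7 samples.

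The comparison of genotypes addresses whether loss of both Hnf4 genes moved the axoneme genes. No member passed the test in any of the classes tested. In Ciliated cells edgeR tested 9609 genes and called 0 (0%) at an adjusted p under 0.05; of 61 members tested, 0 were called by edgeR or by DESeq2, the smallest edgeR adjusted p was 1.0, and 1 had an unadjusted p under 0.05 where 2.65% of all genes did. The 61 log2 fold changes ran from -0.386 to 0.606 with a median of -0.045, beside -0.002 over all genes tested, and 24 of 61 were above 0. The median standard error of 0.205 rested on 14 to 47 Ciliated cells per sample, so small changes were not detectable at this depth. The member sum was 15370 ± 1267 CPM (SD, n = 3) in control and 14800 ± 1178 CPM (SD, n = 4) in mutant Ciliated cells.

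Dnah1, an inner arm heavy chain (chromosome 14, 31260375 to 31323896, minus strand), was the member with an unadjusted p under 0.05 in Ciliated cells. It had 71.1, 42.9 and 49.7 CPM in controls and 101, 81.2, 73.3 and 65.4 CPM in mutants (log2 fold change 0.60, SE 0.24, unadjusted p = 0.0316 and adjusted p = 1.0 by edgeR). Mutant 4 was below control 1, so the groups overlapped. Cfap410, a basal body protein (chromosome 10, 77978524 to 77986905, plus strand), was the 1 member of 61 whose samples did not overlap, at 22.5, 22.9 and 29.5 against 35.1, 44.7, 38.6 and 30.1 CPM; among all genes tested 4.59% did not overlap. Its lowest control rested on 6 UMIs. Its log2 fold change was 0.50 (SE 0.28), and it passed no test. Cfap43, a tether protein (chromosome 19, 47736857 to 47919287, minus strand), had 329, 303 and 259.5 against 272.5, 256, 211 and 201 CPM (log2 fold change -0.32, SE 0.17).

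For the abundant members, the log2 fold change in Ciliated cells was 0.06 for Dnah12, -0.03 (SE 0.25) for Dnah5, -0.09 (SE 0.24) for Dnah9, 0.14 for Dnaic2, 0.12 for Dnali1, 0.01 for Rsph1 and 0.14 for Tekt1. None of these was called by edgeR. The direction of the smallest of them changed when single samples were left out.

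**Figure D3:**
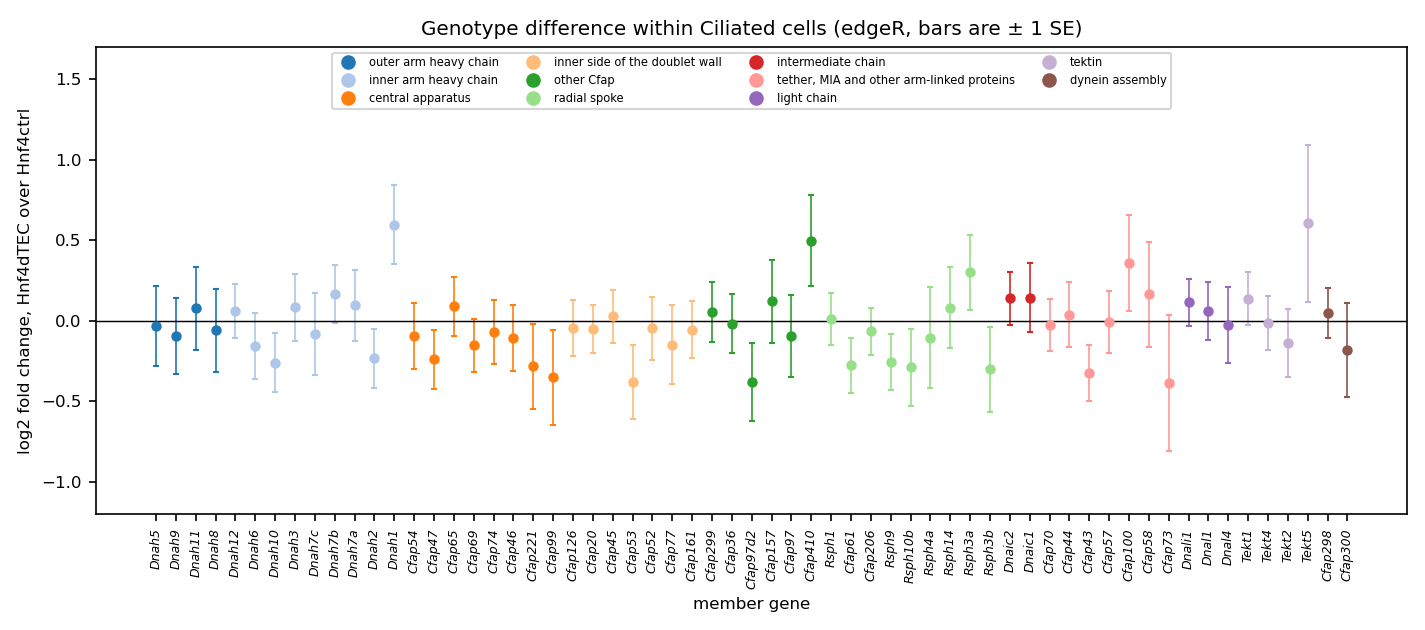
Log2 fold change, Hnf4dTEC over Hnf4ctrl, of the 61 members tested in Ciliated cells, with bars of 1 standard error. Genes are grouped and coloured by role, and within a role run from high to low CPM in Ciliated. The points run from -0.386 to 0.606, and none was called at an adjusted p under 0.05.

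The share of Ciliated cells did not differ beyond the spread between samples. It was 1.748%, 1.53% and 2.977% in controls and 1.695%, 1.598%, 2.352% and 2.695% in mutants (2.085 ± 0.780% and 2.085 ± 0.527%, SD). The two-sided exact permutation test over 35 splits gave p = 0.9714. In that test 1 split is a fraction of 0.02857 and the smaller tail counts for both sides. A p under 0.05 was therefore out of its reach. In sums over all cells, a change in the share of Ciliated cells and a change in RNA per cell cannot be told apart. Over all cells edgeR called 39 of 21187 genes (0.184%) and 0 of 64 members, as did DESeq2 for the members. The smallest edgeR adjusted p of a member was 0.69, and 1 of 64 had an unadjusted p under 0.05, against 6.65% of all genes. The median member log2 fold change was -0.003, beside 0.004 for all genes. Without Ciliated cells edgeR called 41 of 20740 genes (0.198%) and 0 of 58 members.

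Over all cells, 2 of 64 members had samples that did not overlap, Cfap97d2 and Cfap43, against 7.85% of all genes tested. Cfap97d2 had 3.85, 4.48 and 4.73 CPM in controls and 3.02, 3.05, 3.73 and 3.38 in mutants (log2 fold change -0.40, SE 0.15, unadjusted p = 0.0344 and adjusted p = 0.69 by edgeR). Cfap43 had 15.6, 14.98 and 19.2 against 14.5, 12.2, 14.3 and 14.6 CPM (log2 fold change -0.26, SE 0.11, and -0.13 without control 3). Both were lower in all mutant samples, yet neither passed the test. For Cfap61 the log2 fold change was -0.32 (SE 0.15), with overlapping samples, and -0.13 without control 3.

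Outside the Ciliated class, several members had their UMIs mostly in 1 class or a few. Dnah5 was seen in 1206 of 4118 Tuft cells, at 120, 145 and 94.2 CPM in control and 107, 101, 126 and 102 CPM in mutant samples, or 111.8 CPM over all. After thinning, 20.94% of Tuft cells held a Dnah5 UMI, against 0.785% to 4.65% in the other classes besides Ciliated, so its share differed between classes at equal depth. Tekt5, a tektin known from sperm, was in Tuft cells at 34.3, 33.2 and 33.3 against 35.8, 38.5, 33.1 and 29.1 CPM, with a UMI in 1242 of 4118 cells and in 14.94% after thinning. Its thinned share was 14.1% in Entero-hepato, 7.87% in Immature and 7.66% in Keratinocyte cells, down to 0.730% in Microfold cells. Its highest level was in Entero-hepato cells, at 40.3 CPM with 52.0% of the UMIs in 5 cells, and in Ciliated cells it had 16.5 CPM. Rsph1 at 38.9 CPM and the central apparatus gene Cfap54 at 23.4 CPM were present in Tuft cells as well.

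Neuroendocrine cells held another group. Dnah9 had 79.8, 73.7 and 84.8 CPM there in controls and 53.4, 57.8, 51.1 and 99.95 CPM in mutants, with a UMI in 248 of 707 cells. Tekt4 had 51.6, 57.3 and 72.6 against 54.6, 50.9, 47.9 and 48.4 CPM in 280 of 707 cells. Cfap410 was higher there than in Ciliated, at 71.5, 35.9 and 61.7 against 46.5, 44.1, 51.1 and 58.3 CPM. In thinned cells the shares with a UMI were 20.72% for Dnah9, 20.29% for Tekt4 and 21.01% for Cfap410, and the intermediate chain gene Dnaic1 had 20.29% at 49.9 CPM. Tekt4 had at most 1.28% in any other class besides Ciliated. Dnah9 was spread more widely, with 15.38% in Entero-hepato, 13.76% in Aire-adjacent and 13.33% in Keratinocyte cells, at 61.8 CPM in Aire-adjacent and 58.6 CPM in Keratinocyte cells, and no UMI in thinned Microfold cells.

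In cells annotated as Aire-expressing, some members had part of their UMIs in a few cells with high counts. Dnah14, whose axonemal position is not settled, had 34.8 CPM there and 7.84 CPM in Ciliated; 135 of 785 cells had a UMI, and the top 5 cells held 24.85% of them. Its samples ran widely, at 62.6, 20.2 and 20.3 against 54.4, 23.1, 41.4 and 43.3 CPM. Cfap299 had 69.0 CPM and was more widely seen, with a UMI in 306 of 785 cells and in 19.1% of thinned cells. Of its UMIs, 149 were in 1 cell and 25.97% in 5 cells. Dnah17 had 7.83 CPM there against 0.825 in Ciliated. The antisense transcript Dnah2os, which lies inside Dnah2 on the opposite strand, had 1.72 against 0.412 CPM, and Cfap97d1, with 15 UMIs in all, 0.755 against 0.206. In Entero-hepato cells Cfap53 reached 198.9 CPM from 8 of 85 cells, and among the samples with at least 10 such cells it was at 0 in control 2 and at 258.9 CPM in control 3. Cfap45 in Microfold cells, at 39.6 CPM, was spread over 16.06% of thinned cells.

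**Figure D4:**
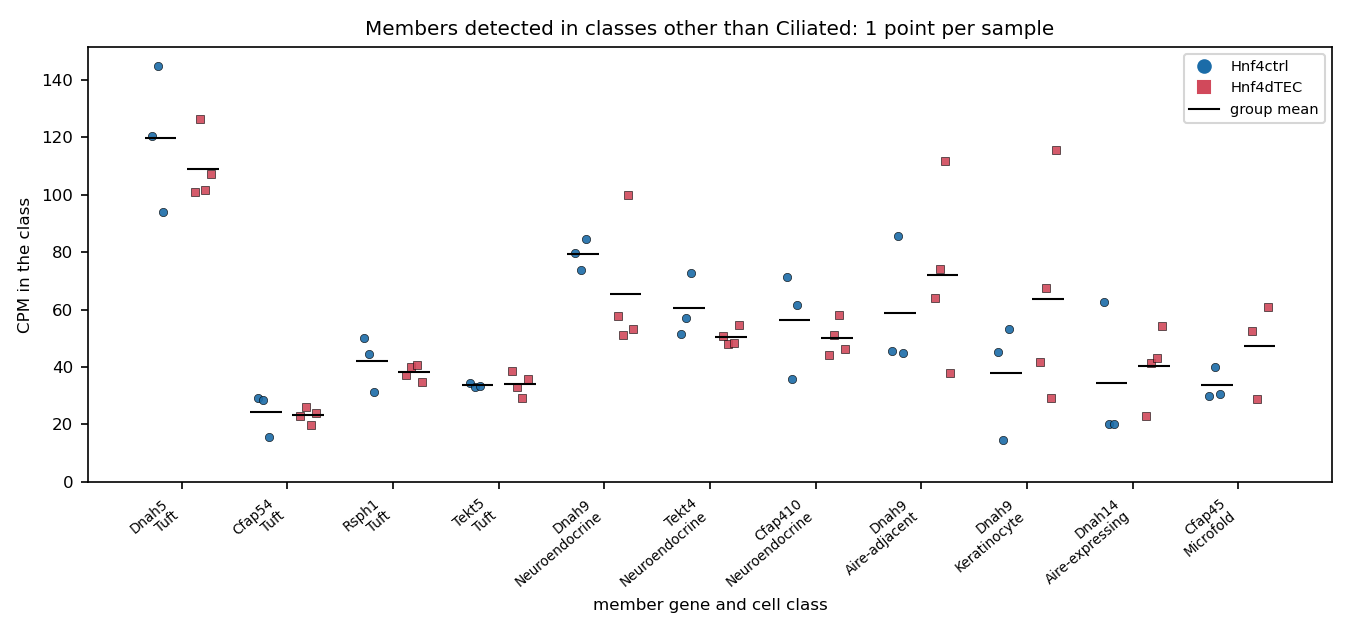
CPM by sample for members with UMIs outside Ciliated, each in the class named beside it, controls and mutants side by side. The Dnah5 samples in Tuft cells lie between 94.2 and 145 CPM and overlap between genotypes.

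Within the other classes the genotype test called no member. The genes called by edgeR, among all tested, were 13 of 14760 in Tuft (0.0881%; 35 members tested), 44 of 11297 in Neuroendocrine (0.389%; 28 members), 9 of 11267 in Keratinocyte (0.0799%; 18 members), 3 of 9556 in Secretory (0.0314%; 16 members) and 141 of 4656 in Microfold (3.03%; 3 members; mutant 4, with fewer than 10 such cells, was left out). No gene was called (0%) in Aire-expressing, Aire-adjacent, Immature, TA or Transitional cells, where 38, 9, 7, 13 and 11 members were tested. DESeq2 called no member in these classes either. Members with an unadjusted edgeR p under 0.05 numbered 4 of 35 in Tuft (8.74% of all genes), 3 of 38 in Aire-expressing (5.15%), 2 of 28 in Neuroendocrine (8.32%), 2 of 18 in Keratinocyte (7.3%), 2 of 16 in Secretory (6.67%), 2 of 11 in Transitional (5.03%) and 1 of 9 in Aire-adjacent (5.42%). There were 0 in Immature (3.86% of all genes), Microfold (16.3%) and TA (3.94%).

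Dnah5 in Tuft cells differed by -0.14 on the log2 scale (SE 0.13; edgeR gave an adjusted p of 0.82). For Dnah9 in Neuroendocrine cells the difference was -0.25 (SE 0.22), and 3 of 4 mutant samples lay below every control while mutant 4 lay above all; without mutant 4 it was -0.54, without mutant 1 -0.16 and without mutant 3 -0.15. Tekt4 in the same cells differed by -0.28 (SE 0.14; edgeR gave an adjusted p of 0.669), and by -0.10 without control 3. The smallest unadjusted p-values outside Ciliated were those of Cfap53 in Aire-adjacent cells, at 15.2, 14.3 and 17.0 against 27.2, 31.2, 76.7 and 78.3 CPM (a difference of 1.72 on the log2 scale, SE 0.45; edgeR gave an adjusted p of 0.402), and the central apparatus gene Cfap46 in Aire-expressing cells (-0.86, SE 0.22; edgeR gave an adjusted p of 0.619). The Cfap53 samples did not overlap, as was so for 6.63% of genes tested in that class, and 5 cells held 50% of its 174 UMIs, 33 of them in 1 cell. Of the alternatives run, Cfap53 passed the test there only without the filter on low counts. Without that filter edgeR called 1.14% of 24573 genes in Aire-adjacent, 3.1% in Microfold, 1.16% in Secretory, 0.491% in Transitional and 0.659% in Ciliated cells, with 1, 1, 1, 2 and 0 members among them. These genes were picked after their values were seen.

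Within the Ciliated class, the heavy chain UMIs varied among cells with those of a small set of genes of centriole amplification. Multiciliated cells first make many centrioles, under the coregulator Mcidas with Ccno, Deup1 and Cdc20b, and build cilia afterwards. These 4 genes were chosen from longer lists after values were seen, so what follows is a description. Of 193 Ciliated cells thinned to 5000 UMIs, 96 had no UMI of the 4 genes, 46 had 1 to 4, and 51 had at least 5. The outer arm heavy chains had a mean of 10.3 UMIs per cell in the first set, 8.85 in the second and 2.98 in the third. The inner arm heavy chains went from 14.7 to 14.2 to 8.18. Cfap genes had 40.2, 40.7 and 31.9 UMIs, Rsph genes 6.86, 6.83 and 7.06, and tektins 3.4, 3.59 and 3.49. Members other than heavy chains summed to 55.0, 56.3 and 46.3 UMIs.

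Spearman's rho across the 193 cells between the 4 genes and the summed outer arm heavy chains was -0.49, and it was below 0 in 7 of 7 samples (-0.72 to -0.32). With the cycling markers in place of the 4 genes it was -0.57, also below 0 in 7 of 7 samples. With the 4 genes, rho for the inner arm heavy chains was -0.28, for Cfap genes -0.18, for Rsph genes 0.03 and for Tekt genes 0.03. The cells share 1 droplet run and the same thinned depth, but those with at least 5 UMIs of the 4 genes had more UMIs before thinning (median 28880 against 19850). Dnah9 went from a mean of 3.92 to 0.863 UMIs between the first and the last set, Dnah5 from 4.21 to 0.961 and Dnah11 from 2.05 to 0.412. Rsph4a and Rsph10b of the spokes and Cfap43, Cfap54 and Cfap77 were lower too, while Rsph1 went from 2.71 to 4.2, Cfap298 from 2.28 to 3.88 and Cfap36 from 1.69 to 3.69. The sperm-type heavy chain Dnah8 was the heavy chain that went the other way most, from 0.104 to 0.706. Markers of cycling moved with the 4 genes, at 0.406, 1.02 and 4.61 UMIs, and the 16 Ciliated markers other than Mcidas and Ccno went from 64.2 to 33.8, whereas Foxj1 had 3.04, 2.52 and 2.9. The part of these in the heavy chain values was not tested.

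**Figure D5:**
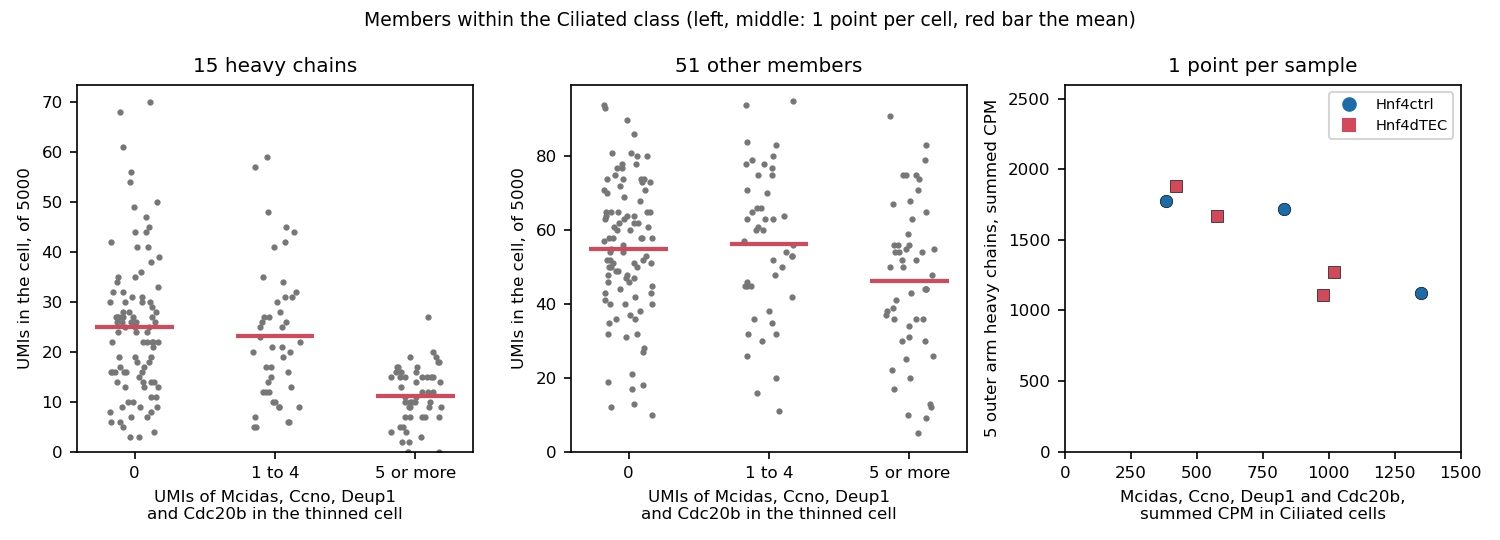
Thinned UMIs per Ciliated cell by the UMIs of Mcidas, Ccno, Deup1 and Cdc20b, for heavy chains of all arms summed and for the other members. The last panel shows outer arm heavy chains as CPM, 1 point per sample. The outer arm heavy chains alone are not drawn by cell. They average 10.3 thinned UMIs in cells with none of the 4 genes and 2.98 in cells with at least 5.

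Between samples, the 4 genes summed to 381.6, 828.7 and 1350 CPM in control and 577.3, 418.3, 1021 and 978.6 CPM in mutant Ciliated cells, beside outer arm heavy chains of 1773, 1717 and 1127 against 1669, 1878, 1269 and 1112 CPM. The 3 samples with the most of the 4 genes, control 3 and mutants 3 and 4, were those with the least outer arm RNA. They also had the most Ciliated cells and the most cycling marker RNA, at 451, 462 and 586 CPM against 221 to 357 in the others. The share of Ciliated cells with a UMI of the 4 genes did not follow that order. It was 71.43%, 78.57% and 76.6% in controls and 78.57%, 63.64%, 77.14% and 75.68% in mutants. These shares used cells without thinning, so they are not at equal depth. Median UMIs per Ciliated cell ran from 16320 in control 1 to 25920 in control 3. With so few samples per genotype no correlation across samples is given.

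Other genes of the cilium were looked at in 9 lists. In Ciliated cells all 21 intraflagellar transport genes were highest of any class, but 1 of 21 was at least 10 times above the next; these genes also serve the primary cilia of other cells. The nexin-dynein regulatory complex and ruler list was more restricted: 12 of 12 were highest there and 7 of 12 at least 10 times above the next, led by Ccdc39 at 312 CPM, the molecular ruler for spoke and inner arm spacing. Outer arm docking genes were highest in Ciliated in 5 of 5 and dynein assembly factors in 14 of the 16 detected. Of central apparatus genes 10 of 11 were, with Spag16 at 748 CPM, and of spoke and inner wall proteins outside the prefixes 14 of the 14 detected, with Nme5 at 578 CPM. Cytoplasmic dynein and shared light chain genes were highest there in 9 of 16; Dynll1, a light chain of many complexes, had 2967 CPM beside 1167 in Tuft cells. Among transcription factors 10 of 14 were highest in Ciliated, but Rfx3 was at 404 CPM there and 523 in Neuroendocrine. Of centriole genes 16 of 17 were highest there, with Cdc20b at 291.5 and Deup1 at 290.5 CPM. edgeR called 0 genes of any of the 9 lists, up or down, in Ciliated cells or over all cells.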

How the data were processed

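RNA of 7 hash-tagged mTEClo samples was measured by 10x 3' sequencing in 1 run. The deposited matrix holds UMI counts per gene and barcode, made by the authors with Cell Ranger 6.1.0 and Seurat 4.0.2 on mm10 per the submitters' processing notes, while the file header names version 7.0.0. Whether intronic reads were counted is not given in the sources used here. The hash library is in no group. Cell classes and sample assignments are the authors' deposited annotation; no doublet caller was run. For the cell sets by the 4 genes, the rho values and the shares of thinned cells, each cell was thinned to 5000 UMIs. This left out 4 of 197 Ciliated cells and 236 of 4118 Tuft cells as shallower. The per-sample CPM and shares of the 4 genes used all 197 Ciliated cells without thinning. Within a class, 1000000 UMIs were drawn to compare detection.

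Counts were summed per class and sample and tested with edgeR 4.0.16 (R 4.3.3, TMM, filterByExpr, quasi-likelihood, Benjamini-Hochberg adjustment over all genes, threshold 0.05), in classes with at least 10 cells in at least 3 samples per genotype; Microfold used 6 samples, without Hnf4dTEC 4. DESeq2 1.42.0, other scaling, no filter, a replicate block and leaving out each sample were alternatives. Other scaling and the replicate block were run only over all cells and in Ciliated cells. UMI totals limit precision through counting error, and Ciliated cells had a median of 23530 UMIs. Levels are CPM without TMM.

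Members and lists were chosen with earlier results of these data known. The genes named were, in each prefix, the up to 4 members with the most UMIs in Ciliated, the 3 with the smallest p over all cells and in Ciliated, and members with at least 100 UMIs that were highest elsewhere; other genes and gene-class pairs were named after their values were seen. Coordinates came from GENCODE M21 for 63 of 67 members. Promoter sequences are RefSeq's; the entries Cfap65, Cfap157, Cfap299, Cfap73, Rsph10b, Dnah3, Cfap97, Rsph4a, Cfap54, Dnah2os, Rsph1 and Cfap53 were not found in the table.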

Additional observations from a re-analysis of the deposited data

Results flagged for a closer look

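Among 114 groups of 4 mutant samples looked at, 3 held 1 value far from the other 3, and chance flags about 1 in 20 groups. Tekt2 in Ciliated cells of mutant 2 was at 106 CPM, below the other mutants at 136, 131 and 136. Dnah9 in Neuroendocrine cells of mutant 4 was at 100 CPM, above the others at 53.4, 57.8 and 51.1. Cfap298 in Aire-adjacent cells had 1 mutant sample at 13 CPM, apart from the other 3.

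Members also had signal in barcodes that the annotation leaves out. In these 8904 of 18089 barcodes the members summed to 1190 CPM, beside 1112 CPM in annotated cells. Of the 4520 such barcodes with at least 5000 UMIs, 128 gave members at least 0.695% of their UMIs, the tenth percentile of Ciliated cells, and these had a median of 31480 UMIs.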

How the results depend on the processing

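No member was called in any run that left out 1 sample or by DESeq2. The replicate block and other scaling were run only over all cells and in Ciliated cells, and called no member there. Over all cells the 39 genes called became 7 with the replicate block, 233 by DESeq2, and 2 to 31 when 1 sample was left out (31 without control 1, 2 without control 2, 11 without control 3, and 2, 4, 5 and 7 without mutants 1, 2, 3 and 4). Without the low-count filter 164 genes were called in Ciliated cells, and members past the threshold numbered 1 in Aire-adjacent (Cfap53), 1 in Microfold (Dnah6), 1 in Secretory (Dnah12) and 2 in Transitional (Cfap53 and Dnah11), where 279, 602, 269 and 115 genes were called in all. Of these, Dnah6 in Microfold cells rested on 12, 10 and 4 UMIs in controls and 0 in the mutants, and Dnah11 in Transitional cells on 54 of 63 UMIs in mutant 1. Same-numbered samples may share only a number. They deviated together at correlations of 0.26, 0.1 and 0.03 over 21187 genes, which does not settle whether they were paired. Thinning took the Ciliated share of member UMIs from 47.94% to 35.14% and its median per member from 58.05% to 48.51%.

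Some uncalled log2 fold changes near 0 changed sign, and the cause was not tested. In Ciliated cells the replicate block gave -0.05 for Rsph1, 0.11 for Dnah5 and 0.06 for Dnah9. Without control 1, Dnah5 was 0.22 there and Cfap410 in Neuroendocrine cells 0.01. Without control 2, Rsph1 was -0.03, Dnah9 0.11 and Dnah5 in Tuft cells 0.03. Without mutant 2, Dnah12 was -0.05. Without mutant 3, Rsph1 was -0.06 and Dnah5 0.05. Without mutant 4, Rsph1 was -0.04, Dnah5 0.12 and Dnah9 0.05. The member median ran from -0.061 to 0.046 in Ciliated cells and from -0.086 to 0.083 over all cells. Over the runs without 1 sample the ranges were -0.05 to 0.15 for Dnah12, -0.21 to 0.22 for Dnah5, -0.31 to 0.11 for Dnah9, -0.06 to 0.11 for Rsph1, 0.06 to 0.27 for Dnaic2, 0.07 to 0.19 for Dnali1 and 0.01 to 0.23 for Tekt1 in Ciliated cells, -0.29 to 0.03 for Dnah5 in Tuft cells and -0.36 to 0.01 for Cfap410 in Neuroendocrine cells.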

Other observations

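Detection of members depended on depth outside Ciliated. All 53236741 UMIs of Tuft cells held 66 of the 67 members, and 1000000 of them held 42. The same number of UMIs held 66 members in Ciliated, 59 in Aire-expressing, 56 in Aire-adjacent and 55 in Neuroendocrine cells, and 41 in Immature and in Microfold cells.

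After Ciliated, the class with the highest level was Aire-expressing for 18 members and Neuroendocrine for 17, followed by Tuft for 9, Entero-hepato for 6 and Secretory for 5.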
